A study of Rattus norvegicus with 16 samples.

Results

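The genes described here encode the zona pellucida glycoproteins Zp1, Zp2, Zp3 and Zp4, the oocyte growth factors Gdf9 and Bmp15, and the oocyte secreted protein Oosp1. They were measured in whole ovaries of female rats on single-colour Agilent arrays. A gene was taken through the probe that carries its symbol as gene name in the scanner files, and where several probes do so the brightest would be used. This found 6 of the 7 listed genes, each with 1 probe, among 20227 genes tested in all. Oosp1 has no probe of that name. A probe whose description names Oosp1 is reported beside the others as the 7th gene, and it enters no count or mean described as being over the 6 genes.

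The study had 16 arrays of ovaries from Jcl:SD rats, a Sprague-Dawley stock, of which 8 animals were wild-type (WT) and 8 were BRCA1+/-, with a single intact copy of Brca1. In each genotype 4 animals received olaparib, an inhibitor of poly(ADP-ribose) polymerases, and 4 received vehicle. Olaparib was injected subcutaneously at 50 mg/kg once daily for 14 days from 3 weeks of age, and ovaries were excised 24 h after the last dose. The make-up of the vehicle, its injection scheme, the age of the vehicle animals and the nature of the Brca1 allele are not given in the sources used here. Each group therefore has n = 4 arrays, numbered as replicates 1 to 4 in the labels, and replicates 1 and 2 of every group were on one slide and replicates 3 and 4 on another.

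The zona pellucida is the extracellular coat that a growing oocyte lays down around itself. Its filaments are built from ZP2 and ZP3 and are cross-linked by ZP1, while ZP4 is a further coat protein that rats make and laboratory mice lack. GDF9 and BMP15 are ligands of the TGF-beta family that the same oocyte secretes onto the surrounding granulosa and cumulus cells, where they act through type II and type I receptors and SMAD proteins on follicle growth, the cumulus matrix and metabolism. Transcripts of all these genes in the ovary are made almost wholly by oocytes, a small part of the tissue, so fewer oocytes and less RNA per oocyte cannot be told apart in these whole-organ samples.

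Promoter sequences are shown because zona genes are known to be driven in oocytes by factors that bind E-boxes, among them FIGLA, a basic helix-loop-helix protein. RefSeq entries on the rat build GRCr8 were at hand for 5 of the 7 genes, and the 250 bases before the annotated start are printed 5′ to 3′ on the strand of the gene. Capitals mark CAGGTG, an E-box form that was picked after the sequences had been read, or its reverse complement CACCTG. The windows are chr1:216992149-216992398 (minus strand) for Zp1, chr12:26334127-26334376 (minus strand) for Zp3, chr17:63703701-63703950 (minus strand) for Zp4, chr10:38096301-38096550 (plus strand) for Gdf9 and chrX:18840693-18840942 (plus strand) for Bmp15.
Zp1: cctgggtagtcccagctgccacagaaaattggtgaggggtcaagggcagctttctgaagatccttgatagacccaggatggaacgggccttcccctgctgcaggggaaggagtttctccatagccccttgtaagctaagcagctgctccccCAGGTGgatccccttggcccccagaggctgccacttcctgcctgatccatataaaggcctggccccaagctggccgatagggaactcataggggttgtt
Zp3: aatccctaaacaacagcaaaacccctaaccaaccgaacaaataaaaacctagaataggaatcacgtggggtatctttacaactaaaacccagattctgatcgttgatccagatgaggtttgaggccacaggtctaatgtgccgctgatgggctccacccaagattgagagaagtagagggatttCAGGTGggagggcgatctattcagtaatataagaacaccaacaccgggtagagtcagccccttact
Zp4: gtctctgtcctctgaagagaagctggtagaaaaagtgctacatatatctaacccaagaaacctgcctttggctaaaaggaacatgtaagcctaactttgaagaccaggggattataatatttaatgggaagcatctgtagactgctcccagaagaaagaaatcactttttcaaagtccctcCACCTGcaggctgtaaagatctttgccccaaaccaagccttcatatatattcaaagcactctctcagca
Gdf9: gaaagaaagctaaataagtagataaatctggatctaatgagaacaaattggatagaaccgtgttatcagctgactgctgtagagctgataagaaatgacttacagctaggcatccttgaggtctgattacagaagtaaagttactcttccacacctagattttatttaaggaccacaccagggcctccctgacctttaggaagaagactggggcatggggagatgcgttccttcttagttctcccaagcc
Bmp15: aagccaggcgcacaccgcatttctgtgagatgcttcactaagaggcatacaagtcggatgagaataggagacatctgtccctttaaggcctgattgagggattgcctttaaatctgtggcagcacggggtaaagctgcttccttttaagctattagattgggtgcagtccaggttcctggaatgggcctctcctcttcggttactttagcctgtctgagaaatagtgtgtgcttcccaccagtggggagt
All 3 zona genes shown carried CAGGTG or its complement, with its first base 99 bases before the start in Zp1, 66 in Zp3 and 69 in Zp4. Neither growth factor gene did. Of 33469 rat promoters of this length, 15.9% contained this form on either strand. The general E-box CANNTG, of which CAGGTG is 1 form, occurred in all 5 windows and in 65.5% of all promoters. TAATTG, a form of the element bound by the oocyte homeobox protein NOBOX, was found on neither strand of these 5 windows and in 7.31% of all promoters. A match to such short letters is a description of the sequence only.

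Values are the log2 values that the authors deposited, in which the log2 signal of the scanner is scaled by 1 constant per array, within 0.0149 of the log2 of that array's 75th percentile. A value of 0 is thus close to the 75th percentile of the probes of that array. The constants corresponded to intensities of 200.4 to 560.8, 55.5% to 60.7% of probes per array were well above background, and no spot was saturated. Levels of different probes are not comparable, so each gene is compared only with itself. Among 6 markers of oocytes, Figla, Nlrp5 and Kit were well above background on all 16 arrays, Nobox on 15 and Dazl on 12. The germ cell helicase Ddx4 was so on 7 arrays and was not tested. The arrays also differed in a score of 11 tested oviduct and ciliated epithelium markers, which lay between -2.39 and -0.67 in 10 arrays and between 1.26 and 3.53 in the other 6. These 6 were replicates 1 and 3 of WT olaparib and replicates 3 and 4 of each BRCA1+/- group, and none was WT vehicle, so the results below are also given without them.

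All 7 genes were well above background on all 16 arrays. Each varied widely between ovaries, with 3.63-fold (Zp3) to 5.61-fold (Bmp15) between its highest and its lowest array. The groups overlapped for every gene in all 4 comparisons of 2 groups, while they did not overlap for 1.15% of all genes for olaparib in WT, 1.11% for olaparib in BRCA1+/-, 3.46% for genotype with vehicle and 0.583% for genotype with olaparib.

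Zp1 encodes the protein that cross-links the zona filaments, and its probe lies at chr1:213410162-213410221 on the build rn4 named in the array files. Its log2 value was 0.55, 0.88, 0.57 and -0.25 in the WT vehicle ovaries and 1.19, 1.21, 1.15 and 0.21 in the BRCA1+/- vehicle ovaries. With olaparib it was 0.50, -0.03, 1.66 and -0.30 in WT and 0.71, 1.30, 0.24 and 0.84 in BRCA1+/-. WT olaparib replicate 3 was the highest of all arrays and replicate 4 of the same group the lowest, while replicate 4 of BRCA1+/- vehicle stood below its 3 tight neighbours. The group means were 0.44 ± 0.48 (SD, n = 4) in WT vehicle, 0.46 ± 0.87 in WT olaparib, 0.94 ± 0.49 in BRCA1+/- vehicle and 0.77 ± 0.43 in BRCA1+/- olaparib.

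Zp2 encodes a filament subunit that takes part in sperm binding and is cleaved after fertilisation; the array files give no position for its probe. In vehicle ovaries its log2 value was 0.13, 0.93, 0.07 and -0.31 in WT and 1.38, 1.09, 0.42 and -0.18 in BRCA1+/-. The olaparib ovaries read 0.49, -0.60, 1.20 and -0.64 in WT and 0.17, 1.31, 0.43 and 0.87 in BRCA1+/-. Replicate 1 of BRCA1+/- vehicle was highest, WT olaparib replicates 2 and 4 were lowest, and each group contained an array below 0.20. Zp2 was the only one of the 7 genes whose highest group mean was BRCA1+/- olaparib, at 0.70 ± 0.50, against 0.68 ± 0.70 in BRCA1+/- vehicle, 0.21 ± 0.52 in WT vehicle and 0.11 ± 0.89 in WT olaparib.

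Zp3 encodes the partner of ZP2 in the filament, and its probe is at chr12:21805746-21805805 (rn4). Vehicle ovaries had log2 values of 2.24, 2.65, 2.48 and 2.14 in WT and 2.97, 2.99, 3.18 and 2.16 in BRCA1+/-. Olaparib ovaries had 2.36, 1.90, 3.57 and 1.71 in WT and 2.60, 3.04, 2.14 and 2.54 in BRCA1+/-. With vehicle, 3 of the 4 BRCA1+/- arrays were above every WT array and replicate 4 lay among them. The spread in WT was 0.23 (SD, n = 4, mean 2.38) with vehicle and 0.84 (mean 2.38) with olaparib, and in BRCA1+/- it was 0.45 (mean 2.82) and 0.37 (mean 2.58).

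Zp4, the further coat protein of the rat zona, has its probe at chr17:69577451-69577510 (rn4). Its log2 values in vehicle ovaries were -1.29, -0.82, -1.64 and -1.56 for WT and -0.50, -0.70, -1.03 and -1.86 for BRCA1+/-. In olaparib ovaries they were -1.32, -1.96, -0.16 and -2.17 for WT and -1.18, -0.62, -1.90 and -1.29 for BRCA1+/-. The highest and the lowest array were again WT olaparib replicates 3 and 4. Means were -1.33 ± 0.37 in WT vehicle, -1.40 ± 0.90 in WT olaparib, -1.02 ± 0.60 in BRCA1+/- vehicle and -1.25 ± 0.53 in BRCA1+/- olaparib.

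Gdf9, the growth factor without which mouse follicles stop at the primary stage, has its probe at chr10:38902923-38902982 (rn4). It read 1.31, 2.16, 1.23 and 1.197 in WT vehicle ovaries and 2.45, 1.73, 2.16 and 1.23 in BRCA1+/- vehicle ovaries. Olaparib ovaries gave 1.31, 0.49, 2.70 and 0.74 in WT and 1.55, 1.79, 1.73 and 1.55 in BRCA1+/-. Replicate 2 of WT vehicle stood above 3 close neighbours, WT olaparib held both the highest and the lowest array, and BRCA1+/- olaparib was the tightest group. Its means were 1.48 ± 0.46 in WT vehicle, 1.31 ± 0.99 in WT olaparib, 1.89 ± 0.53 in BRCA1+/- vehicle and 1.65 ± 0.12 in BRCA1+/- olaparib.

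Bmp15, the X-linked relative with which GDF9 can form a heterodimer, has its probe at chrX:29003933-29003992 (rn4) and gave intensities of 12.8 to 61.9. WT vehicle ovaries had log2 values of -3.83, -2.99, -4.00 and -4.46, and BRCA1+/- vehicle ovaries had -2.41, -3.88, -2.86 and -4.90. WT olaparib ovaries had -4.36, -4.51, -2.71 and -3.99, and BRCA1+/- olaparib ovaries had -4.20, -3.37, -3.81 and -4.54. BRCA1+/- vehicle held both the highest array, replicate 1, and the lowest, replicate 4. Means were -3.82 ± 0.61, -3.89 ± 0.82, -3.51 ± 1.11 and -3.98 ± 0.50 in WT vehicle, WT olaparib, BRCA1+/- vehicle and BRCA1+/- olaparib, so Bmp15 alone was lowest on average in BRCA1+/- olaparib.

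Oosp1 encodes a protein secreted by oocytes, and the probe described as Oosp1 lies at chr1:214427140-214427199 (rn4). It read -0.40, 0.22, -0.98 and -1.35 in WT vehicle, and 0.48, -0.47, -0.24 and -1.03 in BRCA1+/- vehicle. With olaparib the values were -0.69, -1.40, 0.30 and -1.38 in WT and -0.23, -0.36, -0.67 and -0.83 in BRCA1+/-. As for Zp2 and Bmp15, BRCA1+/- vehicle replicate 1 was highest. Means were -0.63 ± 0.69 in WT vehicle, -0.79 ± 0.80 in WT olaparib, -0.31 ± 0.63 in BRCA1+/- vehicle and -0.52 ± 0.27 in BRCA1+/- olaparib.

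**Figure D1:**
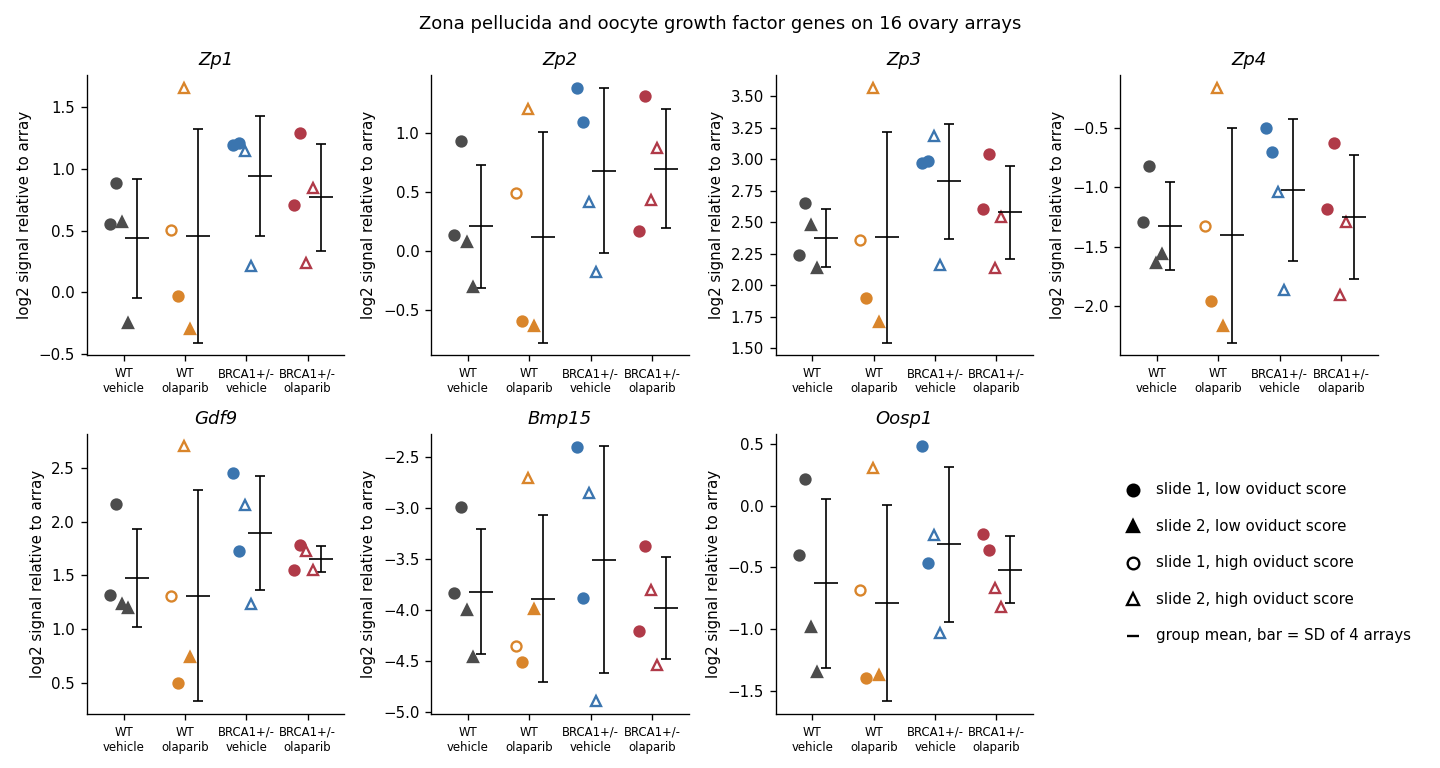
Each panel plots the deposited log2 signal of 1 gene (vertical axis) on the 16 arrays in the 4 groups, with circles for slide 1, triangles for slide 2, open symbols for the 6 arrays of high oviduct score, and the group mean with its SD (n = 4). All groups overlap, and WT olaparib is spread from the lowest to the highest arrays in Zp1, Zp3, Zp4 and Gdf9.

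BRCA1+/- vehicle had the highest group mean for 6 of the 7 genes and WT olaparib the lowest for 4. No neighbouring group means in these orders differed beyond the spread of the arrays. WT olaparib was the most variable group for 5 of the 6 genes, the exception being Bmp15 with its SD of 1.11 in BRCA1+/- vehicle. The 6 genes had SDs in WT olaparib of 0.82 to 0.99 and a median of 0.88, against a median SD of 0.44 over all genes tested there. The median SD of the 6 genes was 0.47 in WT vehicle, 0.57 in BRCA1+/- vehicle and 0.47 in BRCA1+/- olaparib, beside 0.40, 0.37 and 0.33 for all genes. The spread in WT olaparib was carried by opposite arrays, since its replicate 3 was the highest of 16 for 4 of the 7 genes, replicate 4 the lowest for all 4 zona genes and replicate 2 the lowest for Gdf9 and Oosp1. The oviduct score was high in replicates 1 (3.31) and 3 (3.01) of this group and low in replicates 2 (-1.43) and 4 (-0.67), while the mean of the 6 genes, each centred over the arrays, was -0.20 in replicate 1 and 1.02 in replicate 3. The part of the oviduct score in the spread was not tested.

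The effect of olaparib was examined within each genotype, and that of genotype within each treatment, with limma over all 16 arrays. These comparisons share groups, so a high or low group enters several of them. In WT ovaries the 6 genes did not shift together, with log2 differences of -0.16 (Gdf9) to 0.02 (Zp1) and a median of -0.07, the same as the median of all genes (-0.07). The widest interval among the 7 genes, that of Bmp15, ran from -1.19 to 1.05. None of the 7 genes was called at a limma adjusted p under 0.05, and 0% of the 20227 genes were called. No gene of the 7 had an unadjusted p under 0.05, which 4.33% of all genes had (2.25% higher and 2.08% lower). A difference above 0 was found for 2 of the 6 genes and for 39.2% of all genes. For Zp3, with a difference of 0.00 (SE 0.35), the interval of 95% was -0.75 to 0.76. On slide 1 the difference was negative for all 7 genes, from -1.02 to -0.32, and on slide 2 it was positive for all 7, from 0.33 to 0.88, with 2 arrays per group in each.

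In BRCA1+/- ovaries 5 of the 6 genes were lower on average with olaparib, from -0.47 for Bmp15 (SE 0.52) to -0.17 for Zp1 (SE 0.40), and Zp2 differed by 0.02 (SE 0.45). The median of the 6 was -0.23, beside 0.02 for all genes, of which 53.1% had a difference above 0. No gene had an unadjusted p under 0.05, where 1.18% of all genes did (0.529% higher and 0.648% lower), and the smallest was 0.384 for Bmp15 (limma adjusted p 0.9998). Called genes made up 0% of all genes here as well. The olaparib difference of Zp2 was -0.50 on slide 1 and 0.53 on slide 2, and the other 6 genes were lower on both slides.

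The effect of the genotype was examined within each treatment. With vehicle, all 6 genes were higher on average in BRCA1+/- than in WT, by 0.30 (Zp4) to 0.50 (Zp1) on the log2 scale, with a median of 0.43, beside -0.06 for all genes. A difference above 0 was found for 42.2% of all genes. Zp1 was 1.42-fold higher with an interval of 95% of 0.78 to 2.56, and Zp3 was 1.36-fold higher with 0.81 to 2.30. None passed the test. The smallest limma p were 0.228 for Zp3 and Zp1 (adjusted p 0.869 each), an unadjusted p under 0.05 belonged to 5.5% of all genes (1.93% in the higher and 3.57% in the lower direction) but to none of these 7, and 0% were called. A two-sided exact permutation test of Zp3, with 70 arrangements and a smallest possible p of 0.0286, gave p = 0.114. All 7 genes were higher in BRCA1+/- on both slides, by 0.10 to 0.70 on slide 1 and 0.15 to 0.53 on slide 2. Because the 7 genes vary together between ovaries, as described below, their shared direction is not a set of independent observations. Leaving out 1 array at a time kept the direction for all 7 genes except Bmp15, but the sizes depended on single arrays. Without BRCA1+/- vehicle replicate 1, Bmp15 was at -0.06, Oosp1 at 0.0486, Zp4 at 0.13, Gdf9 at 0.23 and Zp2 at 0.23. Without WT vehicle replicate 4, Zp1 was at 0.27, Zp2 at 0.30, Bmp15 at 0.0979 and Oosp1 at 0.0734. With normexp background correction Bmp15 was at 0.0261.

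With olaparib, 5 of the 6 genes were higher on average in BRCA1+/-, by 0.15 (Zp4) to 0.58 (Zp2), and Bmp15 differed by -0.09. The median was 0.25, beside 0.02 for all genes. Zp2, at 1.497-fold with an interval of 95% of 0.77 to 2.90, had the smallest p (limma, 0.213, adjusted p 0.9997). None of the 7 genes reached an unadjusted p under 0.05, against 0.91% of all genes (0.549% higher and 0.361% lower), and 0% of all genes were called. A difference above 0 was found for 53.1% of all genes. All 7 differences were positive on slide 1, from 0.64 to 0.80, and on slide 2 only that of Zp2 was, at 0.37, the others lying between -0.82 and -0.08.

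The interaction, by how much the olaparib difference of BRCA1+/- ovaries exceeds that of WT ovaries, ranged from -0.40 (Bmp15, SE 0.74) to 0.11 (Zp2, SE 0.63). Its median was -0.17, beside 0.08 for all genes. No gene had an unadjusted p under 0.05, which 3.44% of all genes had (2.03% higher and 1.41% lower), and 0% were called. The interaction was above 0 for 1 of the 6 genes and for 57.8% of all genes. In simulated data of this size, genes drawn at random were changed for olaparib in WT, 50 each by 1, 2, 3 and 4 on the log2 scale. Of those changed by 1, 32% were called, and of those changed by 2, 78%. So many changed genes at once ease the Benjamini-Hochberg adjustment, and the 6 genes had a larger median SD than all genes in every group. These shares therefore do not tell how often such a change of the 6 genes would be called. Over all 28 differences of the 7 genes between groups, the smallest exact permutation p was that of Zp3 with vehicle, and every value was 1 after Benjamini-Hochberg adjustment over the 28.

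**Figure D2:**
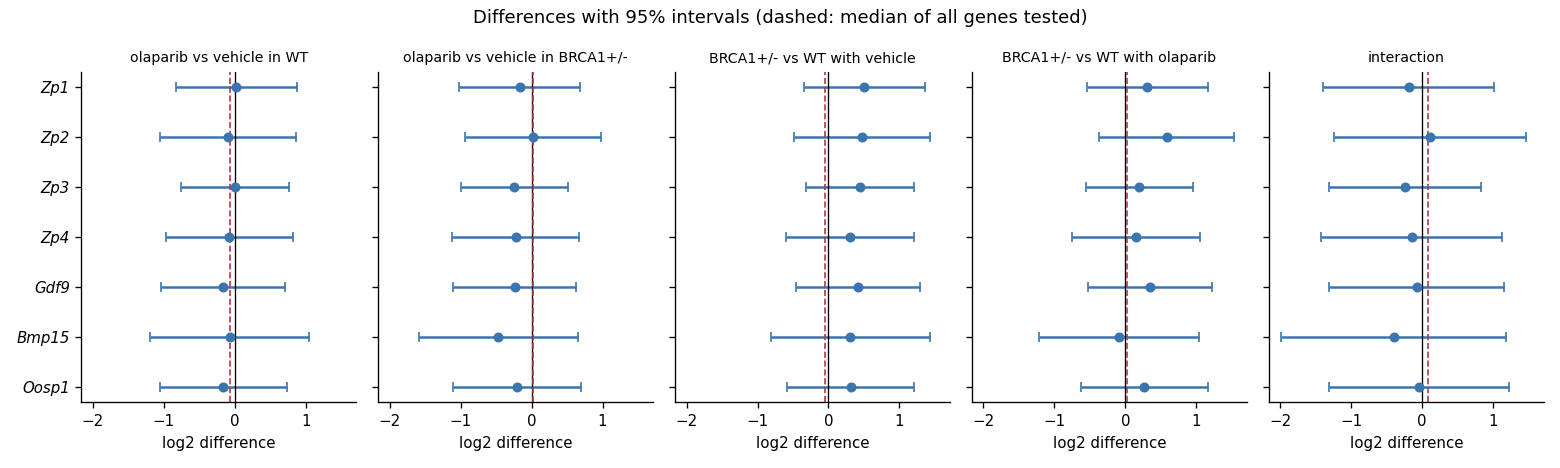
Points give the limma log2 difference of each gene (horizontal axis) in the 5 comparisons and bars its 95% interval, with 0 as a solid line and the median of all 20227 genes as a dashed line. Every interval contains 0, and the points lie to the right of 0 for all 7 genes in BRCA1+/- against WT with vehicle.

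All 5 comparisons were also made without the 6 arrays of high oviduct score. Only 2 arrays then remain in each group but WT vehicle. The remaining BRCA1+/- arrays are all on slide 1, while WT keeps arrays of both slides. Genotype is therefore mixed with slide in this subset, and the genotype differences below cannot be fully told apart from slide. In BRCA1+/- ovaries, leaving out the arrays of high oviduct score also left out all of slide 2. The 6 genes were all lower with olaparib in WT, from -0.86 (Gdf9) to -0.43 (Bmp15), and 3 of them, Gdf9, Zp3 and Zp4, had an unadjusted p under 0.05, beside 1.87% of all genes that were lower at this level. With olaparib they were all higher in BRCA1+/- than in WT, from 0.46 (Bmp15) to 1.36 (Zp2), and 5 had an unadjusted p under 0.05, beside 1.69% of all genes that were higher. With vehicle they were higher in BRCA1+/- by 0.60 (Zp3) to 1.03 (Zp2), and 4 had an unadjusted p under 0.05, beside 1.86% of all genes that were higher and 1.83% that were lower. In BRCA1+/- ovaries the olaparib differences ran from -0.64 to -0.16, and none had such a p, beside 0.465% of all genes that were higher and 0.489% that were lower. The interaction was above 0 for 5 of the 6 genes, with a median of 0.41 in place of -0.17, and none had such a p, beside 0.677% and 0.781% of all genes. Because the 6 genes vary together between ovaries, as described below, those that share a direction or a small p are not independent observations. This subset was chosen after seeing the data, and no limma adjusted p of the 6 genes was below 0.9916 in it.

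Between ovaries the 7 genes rose and fell together. The closest pair was Zp1 and Zp3, at r = 0.96 (Pearson) and rho = 0.96 (Spearman) over 16 arrays (permutation p 1e-05 for both, the smallest that 100000 permutations can give, and 4.67e-05 and 5.25e-05 after Benjamini-Hochberg adjustment over 21 pairs). Zp3 and Zp4 followed with r = 0.93, Zp1 and Zp4 with r = 0.92, and Gdf9 and Oosp1 with r = 0.91. The loosest pair was Zp2 and Bmp15, with r = 0.66 and rho = 0.63 (permutation p 0.00597 and 0.0112, adjusted 0.00597 and 0.0117). Bmp15 was closer to Gdf9 (r = 0.83) and Oosp1 (r = 0.83) than to any zona gene (r = 0.66 to 0.73).

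Over the 21 pairs the median r was 0.85, and all 21 had an adjusted permutation p under 0.05. The genes were chosen with this covariation already known from the same arrays, so these p-values describe it and are no independent evidence of it. Over all pairs of tested genes the median r was 0.02, and 3.24% of the pairs reached the lowest r among the 15 pairs of the 6 genes. The correlation did not rest on the group means, because after they were subtracted the median r was 0.84 with a range of 0.71 to 0.96. Without the 2 arrays farthest from the median of the first gene of a pair, r ranged from 0.68 to 0.94 with a median of 0.77. Within slide 1 the median r was 0.87, and within slide 2 it was also 0.87, with 8 arrays each. There 17 and 18 of the pairs passed by Pearson's r, and 14 and 9 by Spearman's rho. Within the 10 arrays of low oviduct score it was 0.86, and 21 pairs passed by Pearson's r and 19 by Spearman's rho. Without the WT olaparib group it was 0.73, and 21 and 20 passed. With normexp background correction of all 16 arrays it was 0.85, but the lowest r was 0.24, and 16 pairs passed by each measure.

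**Figure D3:**
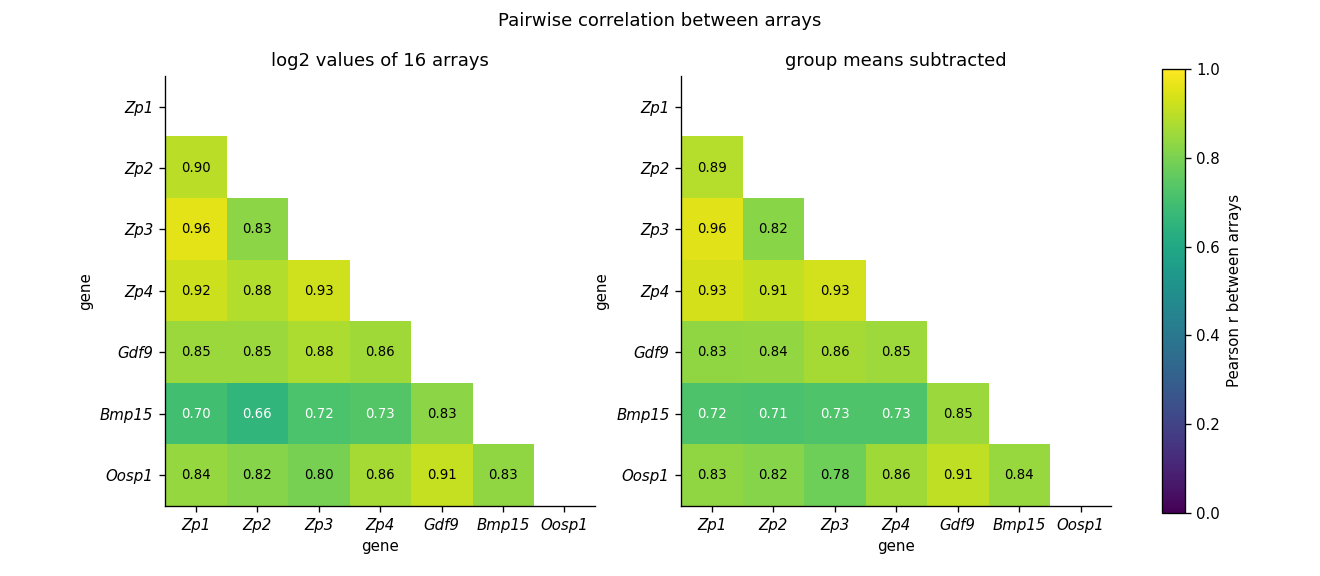
Cells give the Pearson r between the log2 values of 2 genes over the 16 arrays, on the left as they are and on the right after subtraction of the group means, with colour from 0 to 1. The lowest values on both sides are those of Bmp15 with the zona genes.

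Because the genes moved together, the mean of the 6 genes after centring each over the arrays describes most of their variation. It was highest in WT olaparib replicate 3 (1.02) and BRCA1+/- vehicle replicate 1 (0.82) and lowest in WT olaparib replicates 2 (-0.81) and 4 (-0.80). Subtracting the mean of the other 5 genes reduced the variance of a gene by 58.0% (Bmp15) to 86.7% (Zp4). A score of 5 tested oocyte markers that share no gene with these correlated with this mean at r = 0.89. The granulosa score did so at r = 0.40, the luteal score at r = -0.43, the oviduct score at r = 0.22, the adipocyte score at r = -0.09 and the array's scaling constant at r = -0.07, all over 16 arrays and given as description.

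**Figure D4:**
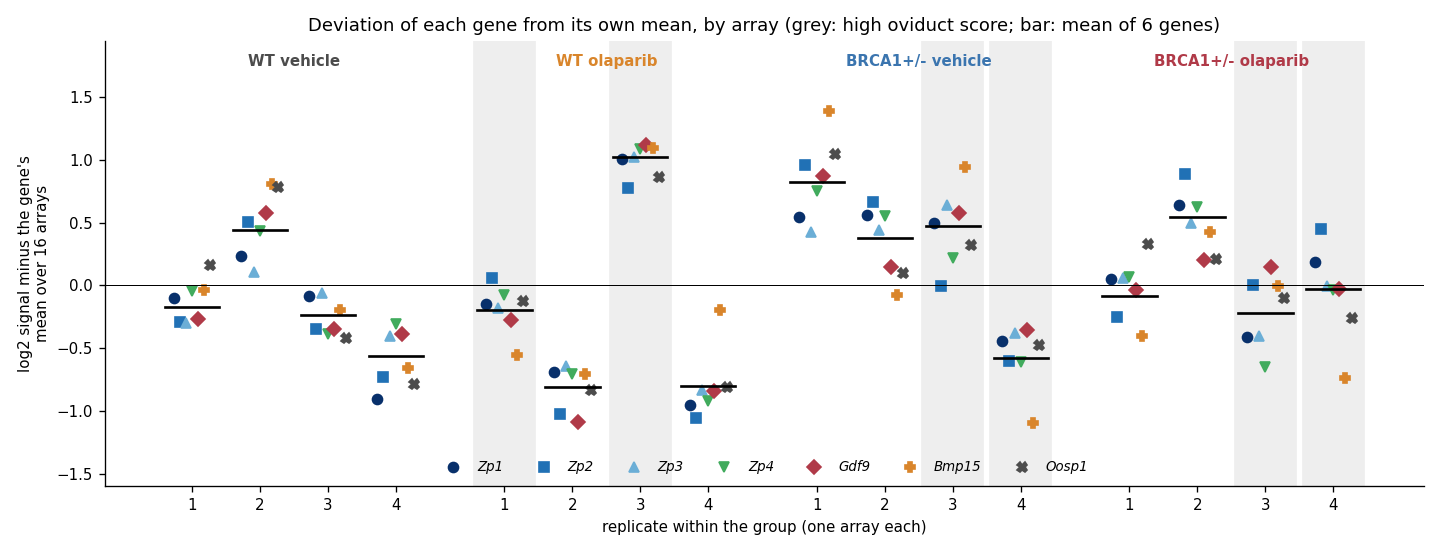
Each column is 1 array, with the log2 signal of every gene minus its mean over 16 arrays on the vertical axis, a bar at the mean of the 6 genes, and grey for the 6 arrays of high oviduct score. The genes cluster within most arrays, with the widest departures for Bmp15.

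Among tested genes with a symbol, leaving out the 7 themselves and unnamed probes, the most like the 6 genes over the 16 arrays were Umodl1 (r = 0.97 with their mean), which encodes a uromodulin-like protein with a zona pellucida domain, the bromodomain gene Brdt (0.96), Gtsf1 of the piRNA pathway (0.96), Slbpl (0.96), the oocyte nucleoplasmin Npm2 (0.96) and Nlrp9 (0.96). They were followed by Bcl2l10 (0.95), a BCL2-family gene of oocytes, Nlrp4b (0.95), the oocyte homeobox gene Lhx8 (0.95), the growth factor Fgf8 (0.94), the poly(A)-binding protein gene Pabpn1l (0.94) and the neuregulin gene Nrg1 (0.94). After subtraction of the group means these 12 genes had r of 0.94 to 0.98. The most negative were the autophagy gene Dram1 (-0.86), Afap1 (-0.82), Ap1g2 (-0.81), Dnajc15 (-0.81) and the alanyl-tRNA synthetase gene Aars1 (-0.80).

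Single genes had partly different nearest genes. Zp1 and Zp3 were each other's closest. Next to Zp1 were Urad (0.95) and Astl (0.95), the protease ovastacin that cleaves ZP2, and next to Zp3 were Umodl1 (0.95) and Padi6 (0.94), a peptidylarginine deiminase of the egg cytoplasm. Zp2 was closest to Lhx8 (0.92), Astl (0.92) and Gtsf1 (0.91), and Zp4 to Lhx8 (0.95), the RNA-binding protein gene Lin28a (0.95) and Npm2 (0.94). Gdf9 was closest to Pabpn1l (0.97), Tcl1a (0.95) and Nlrp9 (0.95). For Bmp15 these were Zfp296 (0.91), Nlrp9 (0.91) and the meiotic kinase gene Mos (0.90), and for Oosp1 they were Btg4 (0.98), a gene of maternal mRNA clearance, Oog1 (0.98) and Bcl2l10 (0.97).

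Lists of related genes were written with earlier results of these data known, so their counts are given as description. Among these lists, the maternal-effect and egg-coat partner genes of the oocyte followed the 6 genes most closely. Of 22 tested, 21 had r above 0.5 with their mean and the median r was 0.87, while 5.07% of all genes had r above 0.5 and their median was -0.02. The exception was Gpr3 (r = -0.05), the receptor that holds oocytes in meiotic arrest. Of 9 tested genes of oocyte transcription and early germ cells, 4 had r above 0.5. These were Lhx8 (0.95), Nobox (0.76), Figla (0.70) and the RNA-binding protein gene Dazl (0.56), whereas Kit (0.21), Pou5f1 (-0.08), Sohlh1 (-0.09) and Taf4b (-0.14) were well below and Ybx2 (0.49) was just below that value. No gene of either list passed the test in any comparison. In the first, 19 of 22 were higher in BRCA1+/- than in WT with vehicle, beside 42.2% of all genes. The median was 0.22, beside -0.06 for all genes. Because most genes of this list vary together with the 6, the 19 are not independent observations. Padi6 had the smallest p in it (difference 0.64, SE 0.41, p 0.138, limma adjusted p 0.862). In the second list 4 of 9 were higher and the median was -0.01. Kit, the receptor through which follicle cells signal to the oocyte and which other ovarian cells express too, differed by 1.06 (SE 0.38, p 0.0141, limma adjusted p 0.862), from 1.65 ± 0.76 to 2.70 ± 0.20.

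The receptors and signal carriers of GDF9 and BMP15 were less close to the mean of the 6 genes than the maternal-effect list was. Their r with the 2 ligand genes alone was not computed. All 24 listed genes were tested. An r above 0.5 was found for 6, beside 5.07% of all genes, and the median was 0.14, beside -0.02 for all genes. The 6 were the type I receptor gene Bmpr1b (0.76), the inhibitory Smad7 (0.64) and Smad6 (0.52), the type II receptor gene Bmpr2 (0.56), the convertase gene Pcsk6 (0.56) and Smad4 (0.51), and they were picked here for their r. None of the 24 passed the test in any comparison. The smallest p was that of Fst, which encodes the activin and BMP antagonist follistatin and was lower in BRCA1+/- than in WT with vehicle, 4.68 ± 0.31 against 5.79 ± 0.46 (difference -1.11, SE 0.26, p 0.000726, limma adjusted p 0.854). In BRCA1+/- ovaries Fst was 5.39 ± 0.35 with olaparib (difference 0.71, p 0.0163, limma adjusted p 0.9998). Acvr2b, a type II receptor, differed by 0.44 with olaparib in WT (SE 0.19, p 0.0332, limma adjusted p 0.963) and by 0.45 between genotypes with vehicle (SE 0.19, p 0.0305, limma adjusted p 0.862).

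Of 23 follicle-cell genes known to respond to these ligands, 21 were tested. The median r with the mean of the 6 genes was -0.14, beside -0.02 for all genes. An r above 0.5 was found for 4 of the 21, beside 5.07% of all genes. These were Amh (0.69), Ptx3 (0.65), Serpine2 (0.56) and Id1 (0.51), again picked for their r. The lowest was Mvd of cholesterol synthesis (-0.57), with the glycolytic Aldoa (-0.55) next. None passed the test in any comparison. Ptgs2, the cyclooxygenase of cumulus expansion, differed by 2.44 with olaparib in WT (SE 0.96, p 0.0233, limma adjusted p 0.963), from -5.05 ± 0.54 to -2.61 ± 1.86. The WT vehicle mean lay below the median of all probes on those arrays, which was -4.19 to -3.83, so this difference starts from a dim signal. Inhbb, which encodes an activin subunit, was 4.90 ± 0.72 with vehicle and 5.78 ± 0.65 with olaparib in BRCA1+/- (difference 0.89, SE 0.36, p 0.028, limma adjusted p 0.9998), and Nr5a2 was 5.35 ± 0.39 in WT and 4.47 ± 0.57 in BRCA1+/- with vehicle (difference -0.88, SE 0.36, p 0.0298, limma adjusted p 0.862).

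**Figure D5:**
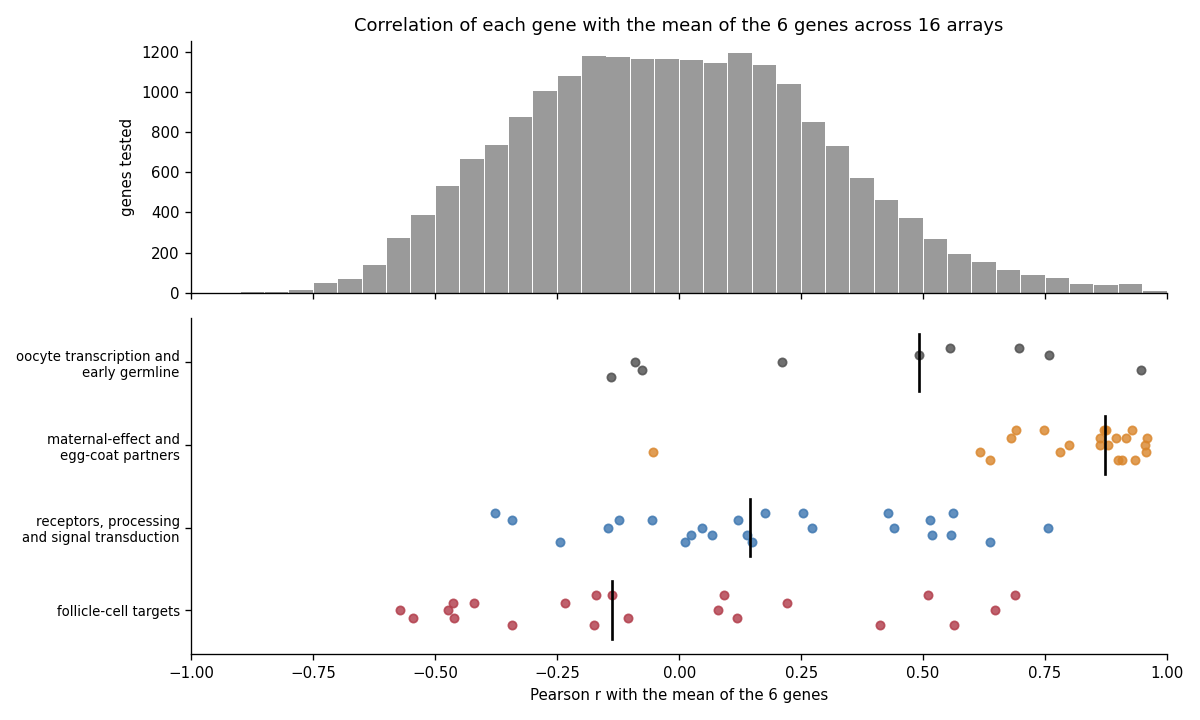
The upper panel counts the 20227 genes by their Pearson r with the mean of the 6 genes over 16 arrays, and the lower panel shows each tested gene of 4 lists as a point, with a black bar at the list's median. The maternal-effect and egg-coat partner list lies at the right, with Gpr3 as the single point near 0.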

How the data were processed

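Total RNA of each ovary was labelled with Cy3 and hybridised to a whole-genome rat array, per the labels' protocols. The authors' spot signals are intensity values of Agilent Feature Extraction (10.7 per the submitters' processing notes, 10.7.1.1 per the file headers), background-subtracted and not scaled between arrays. The value table deposited by the authors holds log2 values. Set against the scanner files, every column differed from the log2 of the processed signal by 1 array-wide constant (r 1.0), and no further scaling was applied.

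Control spots and 12 probes with marked spots were left out of 45598 non-control probes. A probe was kept if well above background in at least 3 of 4 arrays of a group (26820 probes), and a gene was represented by its brightest probe, which gave 20227 tested genes or unnamed probes. Limma 3.58.1 in R 4.3.3 was fitted with 4 group means over all 16 arrays (12 residual degrees of freedom), with Benjamini-Hochberg adjustment over all genes at 0.05, and was tested on simulated data. Exact tests and correlations used scipy 1.17.1, and figures used matplotlib 3.10.9. Marker scores average the log2 values of a list, each gene centred over the arrays.

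The genes described and the lists were chosen with earlier results of these data known. Named are the 7 genes, up to 3 genes of each list with the smallest p per comparison, the 12 most alike and 5 most negative, and the 3 most alike per gene. Others were chosen after their values were seen. Alternatives were 3 other scalings, other filters, every probe alone, slide or replicate block, only the groups compared, and each array left out; the subsets by oviduct score and the one without WT olaparib were added after seeing the data. Positions of probes were copied from the array files (rn4) and were not checked against a genome.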

Additional observations from a re-analysis of the deposited data

Results flagged for a closer look

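Each of the 7 genes was checked in each of the 4 groups for an array that stands apart from the other 3, in 28 sets that are not independent. Chance alone would mark about 5% of such sets, and 2 of 28 were marked. Zp1 in BRCA1+/- vehicle replicate 4 was 0.21, while the other 3 arrays of the group lay between 1.15 and 1.21. This array had an oviduct score of 1.26 and the highest scaling constant of the 16, an intensity of 560.8, and the part of either was not tested. Gdf9 in WT vehicle replicate 2 was 2.16, while the other 3 lay between 1.197 and 1.31. Both arrays stood in the same direction for the mean of the 6 genes, at -0.58 and 0.44.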

How the results depend on the processing

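With 4 arrays per group, the intervals of the 7 genes were wide, with lower ends of -0.81 to -0.31 and upper ends of 1.20 to 1.43 for genotype with vehicle on the log2 scale, and positions of probes, promoter starts and the treatment of vehicle animals rest on the sources as given. The 3 scalings, 2 filters, every probe alone, the blocks and the fits on only the groups compared changed the sign of none of the 7 genes' differences and called none. No other probe existed for these genes, so taking every probe alone kept the same probe for each of them. No gene at all was called by limma in any comparison under these settings or without any single array, except 1 for olaparib in BRCA1+/- without WT olaparib replicate 4 (range 0 to 1, and 0 to 0 for the other comparisons). At an unadjusted p under 0.05 the counts over all alternatives ran from 358 to 2122 for olaparib in WT (875 in the main analysis), 141 to 495 in BRCA1+/- (238), 730 to 1899 for genotype with vehicle (1113), 108 to 508 with olaparib (184) and 295 to 1406 for the interaction (696). All 21 pairs of genes passed without any single array (range 21 to 21), with other scalings except normexp (16, lowest r 0.24), and 11 within the 6 arrays of high oviduct score (2 by Spearman's rho).

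Labels give the groups the same replicate numbers, but same-numbered arrays did not deviate together throughout (r from -0.44 to 0.71), and the numbers were not treated as pairs. With the replicate block 0 genes were called in each comparison and 1607, 486, 1807, 392 and 1406 genes had an unadjusted p under 0.05, in the order above. In 12 of 16 arrays the closest array of another group had the same number. The median r was 0.05 to 0.35 for same numbers and -0.05 for different ones. Same-numbered arrays were always on the same slide, while arrays of different numbers were on the same slide or on different ones. The part of the slide in this likeness was not tested.

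Without the arrays of high oviduct score, 9 differences changed sign. These were Zp3 (-0.58) and Zp1 (-0.60) for olaparib in WT, Zp2 for olaparib in BRCA1+/- (-0.50), Bmp15 for genotype with olaparib (0.46), and for the interaction Gdf9 (0.44), Zp3 (0.42), Oosp1 (0.46), Zp4 (0.43) and Zp1 (0.40). The cause was not tested.

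Leaving out 1 array changed the sign of the following differences at least once. For olaparib in WT the ranges were -0.63 to 0.11 for Gdf9, -0.47 to 0.21 for Bmp15, -0.39 to 0.23 for Zp3, -0.46 to 0.15 for Zp2, -0.52 to 0.12 for Oosp1, -0.49 to 0.18 for Zp4 and -0.38 to 0.27 for Zp1, with WT olaparib replicate 3 behind every lowest value. In BRCA1+/- they were -0.27 to 0.25 for Zp2, -0.45 to 0.0596 for Oosp1 and -0.41 to 0.0076 for Zp1. For genotype with vehicle Bmp15 ran from -0.0571 to 0.77. For genotype with olaparib the ranges were -0.29 to 0.31 for Bmp15, -0.0277 to 0.59 for Zp3 and -0.10 to 0.57 for Zp4. For the interaction they were -0.35 to 0.39 for Gdf9, -0.47 to 0.15 for Zp3, -0.17 to 0.48 for Zp2, -0.33 to 0.32 for Oosp1, -0.43 to 0.26 for Zp4 and -0.44 to 0.21 for Zp1.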

Other observations

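With the deposited values, Bmp15 varied most on its own among the genes of the zona and the oocyte growth factors. After the mean of the other 5 genes was subtracted, its SD over 16 arrays was 0.48, beside 0.21 for Zp1 and Zp4, 0.22 for Zp3, 0.23 for Gdf9 and 0.32 for Zp2. The largest single departure was that of Bmp15 in BRCA1+/- olaparib replicate 4, at -0.85. Bmp15 gave low intensities, 12.8 to 61.9, and its spread between arrays depended on the scaling. With the deposited values its limma SE for genotype with vehicle was 0.52, the largest among these genes. With normexp background correction this SE was 0.28, the smallest, beside 0.31 for Zp4 and 0.39 for Zp2. The part of the dim signal in the SD of Bmp15 was not tested.

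Further genes of the egg surface and cytoplasm, from the maternal-effect and egg-coat partner list, are given here as values and were chosen after their values were seen. Astl, whose product cleaves ZP2, ranged from 0.14 to 2.07 over the 16 arrays with a median of 1.03, and Padi6 from -0.83 to 1.53 with a median of 0.43. Oosp2, a relative of Oosp1, ranged from -2.77 to -0.74 and correlated with the mean of the 6 genes at r = 0.93. Izumo1r, the egg receptor for the sperm protein IZUMO1, ranged from -5.04 to -2.63 (r = 0.80), and Cd9, a tetraspanin of the egg surface that other ovarian cells also express, from 0.59 to 1.52 (r = 0.62).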
